A study of Mus musculus with 8 samples.

Results

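The 8 amino acid transporter genes described here are Slc7a5, Slc3a2, Slc1a5, Slc1a4, Slc7a1, Slc7a11, Slc38a1 and Slc38a2, taken by name from the platform's table of probe sets and genes. They were measured by 10 of the 22225 probe sets that carried a single gene symbol, and all 8 were among the 21515 genes tested. Slc1a5 and Slc7a11 had 2 probe sets each, and the brighter one was used unless stated.

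Expression was measured on 8 Affymetrix arrays of mouse spleen B cells, in 4 groups of 2 arrays labelled as biological replicates. LMP1 cells came from female (C57BL6XBALBc) F1 mice with the alleles LMP1flSTOP/YFPflSTOP, and their YFP control cells came from female F1 mice of that cross with YFPflSTOP/+. Both were treated with TAT-Cre, a recombinase that enters cells, and were sorted for the YFP reporter 2 days later. CD40-activated cells came from male B6/J mice and spent 2 days in culture with anti-CD40, while naive control cells of male B6/J mice went straight to RNA extraction. All 4 groups were enriched by removing cells that carry CD43. LMP1, a membrane protein of Epstein-Barr virus, signals without a ligand through adaptors that CD40 also uses. Arrays of the F1 cells were taken over from an earlier experiment, so strain, sex, recombinase, sort and array set cannot be told apart from the stimulus wherever these cells are set against B6/J cells. Whether replicates came from separate mice is not stated, so p-values measure the spread between these arrays.

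A resting lymphocyte that starts to grow needs amino acids as building blocks and as a signal to the growth kinase mTORC1. Slc7a5 (LAT1) and Slc3a2 (the CD98 heavy chain) form a dimer that brings in leucine and other large neutral amino acids in exchange for glutamine. Slc1a5 (ASCT2) carries neutral amino acids including glutamine, Slc1a4 (ASCT1) carries alanine, serine, cysteine and threonine, and Slc7a1 (CAT1) carries arginine and lysine. Slc7a11 (xCT), another partner of Slc3a2, exchanges cystine for glutamate, and Slc38a1 and Slc38a2 take up small neutral amino acids with sodium. Several of these genes are known targets of ATF4, the factor that acts when amino acids are short, which binds a composite C/EBP-ATF response element.

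Promoter sequence is shown for Slc1a4 and Slc7a1, which rose in both stimulated cells, and for Slc7a11, which did not. RefSeq's table (GRCm38.p6) held promoters for 5 of the 8 genes, and Slc7a5, Slc1a5 and Slc38a1 were not among them. Each stretch runs from 150 bases before an annotated transcription start through the first 10 transcribed bases, on the minus strand, and capitals mark the response element core TGATGNAA or its reverse complement.
Slc1a4 (chr11:20332704-20332863): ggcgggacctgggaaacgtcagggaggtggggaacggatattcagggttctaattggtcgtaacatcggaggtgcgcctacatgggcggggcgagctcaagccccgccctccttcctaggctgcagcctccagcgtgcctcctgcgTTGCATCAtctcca
Slc7a11 (chr3:50443604-50443763): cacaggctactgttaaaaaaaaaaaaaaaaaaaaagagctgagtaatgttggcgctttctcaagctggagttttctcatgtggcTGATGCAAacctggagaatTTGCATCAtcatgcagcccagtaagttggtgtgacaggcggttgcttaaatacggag
Slc7a1 (chr5:148399895-148400054): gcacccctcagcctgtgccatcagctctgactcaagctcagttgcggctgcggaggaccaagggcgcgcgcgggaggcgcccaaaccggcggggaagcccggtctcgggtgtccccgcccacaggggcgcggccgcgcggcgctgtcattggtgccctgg
In windows of 250 bases before to 50 after the start, the core occurred once for Slc1a4, in reverse orientation and from 4 bases before the start. It occurred at 2 places for Slc7a11, in opposite orientations, and in neither of the 2 annotated starts of Slc7a1 nor for Slc3a2 or Slc38a2. It was present in 3.97% of all 32851 promoters that RefSeq's table held. The core TGACNNNGC of the antioxidant response element, present in 12.4% of all promoters, was found once each for Slc38a2 and for the Slc7a1 start shown. The E box CACGTG (7.15% of all promoters) and the NF-kB element (8.46%) were found in none of the 6 windows. Both strands were searched, and a match describes the letters of these windows only.

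The comparison of LMP1 with YFP control isolates the viral protein best, because strain, sex, recombinase and sort were shared. Of the 8 transporter genes 6 rose and 0 fell, while 14.9% of the 21515 genes tested were higher and 8.31% lower. The median log2 change was 1.06 over the 8 genes and -0.08 over all genes. Slc7a5, Slc1a4 and Slc7a1 rose about equally, by 2.56, 2.53 and 2.32 log2 units, which correspond to 5.88-fold, 5.76-fold and 4.98-fold. Slc1a5, Slc3a2 and Slc38a1 rose less, and Slc38a2 and Slc7a11 did not pass the test. A gene passed at a Benjamini-Hochberg adjusted p under 0.05 in limma, adjusted over all genes, and all values here are log2 expression.

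The LAT1 dimer was uneven in its subunits. Slc7a5 stood at 11.41 and 11.48 on the LMP1 arrays, against 8.76 and 9.02 on the YFP control arrays, a change of 2.56 ± 0.36 (standard error, n = 2 arrays per group; adjusted p = 0.000732 in limma). Slc3a2, its heavy chain, stood at 10.96 and 10.91 on the LMP1 arrays, against 10.08 and 9.77 on the YFP control arrays, a change of 1.01 ± 0.20 (adjusted p = 0.00426 in limma). For both genes each LMP1 array lay above each YFP control array.

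Among the other importers, Slc1a4 had the smallest adjusted p of the 8. Its values were 8.10 and 7.99 on the LMP1 arrays, against 5.48 and 5.56 on the YFP control arrays (change 2.53 ± 0.18; adjusted p = 2.01e-05 in limma). The control values lay around the median probe set of their arrays, whose medians ran between 5.52 and 5.68, so Slc1a4 was a dim signal in those cells. Slc7a1 had 9.57 and 9.64 on the LMP1 arrays, against 7.42 and 7.16 on the YFP control arrays (change 2.32 ± 0.22; adjusted p = 7.27e-05 in limma). Neither gene's groups overlapped, and each group's arrays lay within 0.26 of each other.

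Slc1a5 was at 10.88 on both LMP1 arrays, against 10.28 and 9.27 on the YFP control arrays (change 1.11 ± 0.29; adjusted p = 0.0189 in limma). The YFP control arrays were 1.01 apart, and without YFP control 2 the change was 0.60 and no longer passed (adjusted p = 0.0572 in limma). Its dimmer probe set had 7.76 and 7.64 on the LMP1 arrays, against 6.53 and 6.35 on the YFP control arrays, and rose by 1.26 ± 0.17 (adjusted p = 0.0006 over 22225 probe sets in limma). Both probe sets thus rose in LMP1 cells by similar amounts.

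Slc38a1 and Slc38a2 moved less than the genes above. Slc38a1 had 10.51 and 10.62 on the LMP1 arrays, against 10.02 and 9.75 on the YFP control arrays (change 0.68 ± 0.17; adjusted p = 0.0145 in limma). Slc38a2 had 11.03 and 10.94 on the LMP1 arrays, against 10.90 and 10.94 on the YFP control arrays, and its change of 0.07 had a 95% interval between -0.28 and 0.41 (adjusted p = 0.812 in limma). These groups overlapped for Slc38a2 and not for Slc38a1. With either LMP1 array left out, Slc1a5 (adjusted p = 0.101 and 0.0966) and Slc38a1 (adjusted p = 0.0797 and 0.128) did not pass in limma, and 4 of the 8 genes did.

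Slc7a11 had 5.13 and 4.78 on the LMP1 arrays, against 4.69 and 6.39 on the YFP control arrays. YFP control 2 was the highest of all 8 arrays and stood 1.70 above YFP control 1. The change was -0.59 with an interval between -1.55 and 0.38 (adjusted p = 0.385 in limma), and it turned to 0.27 without YFP control 2 and to -1.44, past the test, without YFP control 1 (adjusted p = 0.00188 in limma). Its dimmer probe set lay between 2.66 and 3.54 on all 8 arrays. The brighter one was below the array median on 7 of 8 arrays, so a direction for Slc7a11 was not detectable here.

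Markers of cell types moved in this comparison as well. The 7 measured B cell markers averaged 10.08 to 10.11 on the LMP1 arrays, against 11.04 to 11.18 on the YFP control arrays, and 5 of 7 were lower. The 6 monocyte markers averaged 5.33 to 5.41 on the LMP1 arrays, against 6.17 to 6.75 on the YFP control arrays, and 3 of 6 were lower. The 5 dendritic cell markers averaged 6.57 to 6.61 on the LMP1 arrays, against 5.59 to 5.79 on the YFP control arrays, and 2 of 5 were higher. Their part in the transporter results was not tested.

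**Figure D1:**
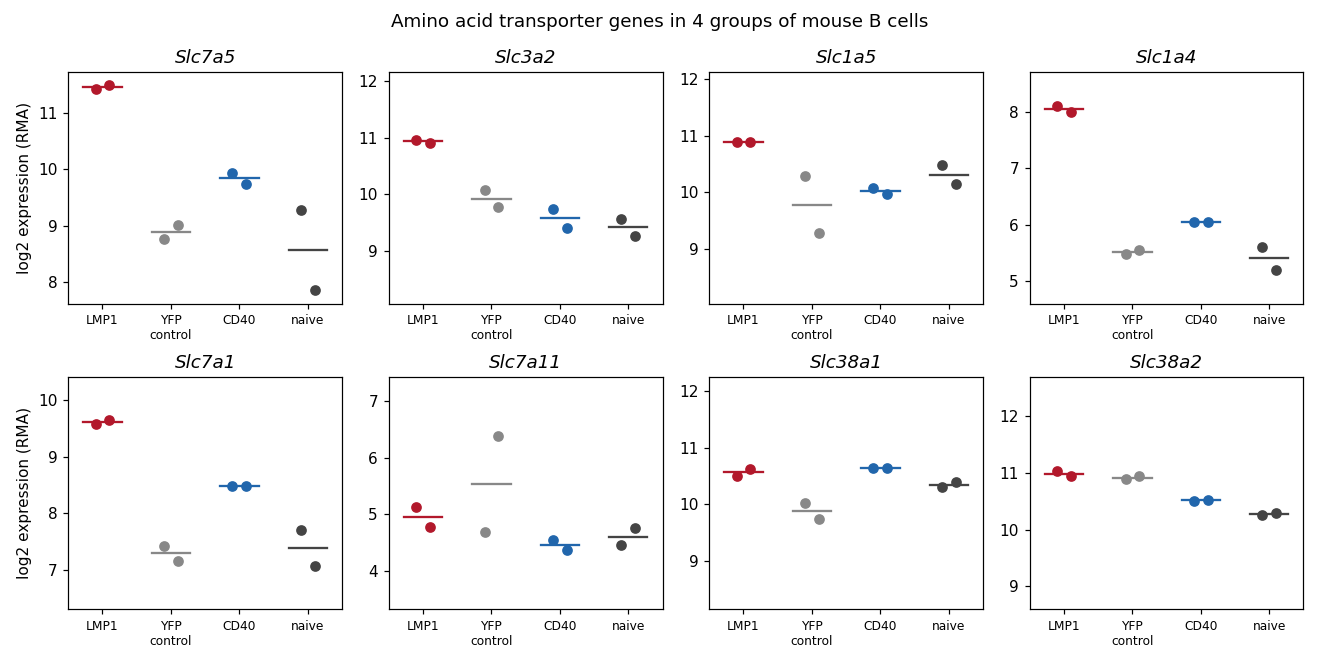
Log2 expression (RMA) of the 8 transporter genes, 1 panel per gene, with a point for each array and a line at each group's mean (n = 2 arrays per group); all panels span the same number of log2 units. The LMP1 points stand above every other array for Slc7a5, Slc3a2, Slc1a5 (brighter probe set), Slc1a4 and Slc7a1, and single arrays stand apart for Slc7a5 (naive control), Slc1a5 and Slc7a11 (YFP control).

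Setting CD40-activated against naive control cells joins the antibody with 2 days of culture, and their effects cannot be told apart. Of the 8 genes 3 rose and 0 fell, while 11.0% of all genes tested were higher and 6.65% lower. The members' median log2 change was 0.27, and that of all genes was -0.05. The 3 were Slc7a5, Slc7a1 and Slc1a4, with changes of 1.27, 1.10 and 0.64.

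Slc7a5 had 9.94 and 9.73 on the CD40-activated arrays, against 9.27 and 7.86 on the naive control arrays (change 1.27 ± 0.36; adjusted p = 0.0375 in limma). The naive arrays were 1.41 apart, and without naive control 2 the change was 0.57 (adjusted p = 0.119 in limma), and without naive control 1 it was 1.98. Slc7a1 had 8.48 on both CD40-activated arrays, against 7.70 and 7.07 on the naive control arrays (change 1.10 ± 0.22; adjusted p = 0.00704 in limma). Slc1a4 had 6.05 on both CD40-activated arrays, against 5.61 and 5.21 on the naive control arrays (change 0.64 ± 0.18; adjusted p = 0.035 in limma). The groups did not overlap for any of these 3 genes, yet with either CD40-activated array left out none of the 8 passed in limma, and with naive control 2 left out only Slc7a1 did.

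The other 5 genes did not pass, though the groups did not overlap for Slc1a5, Slc38a1 and Slc38a2 either. Groups without overlap thus do not set the passing genes apart. How many of all genes had such groups was not counted in any comparison. Slc3a2 had 9.74 and 9.41 on the CD40-activated arrays, against 9.57 and 9.27 on the naive control arrays, a difference of 0.16 with an interval between -0.28 and 0.59. Slc1a5 had 10.08 and 9.97 on the CD40-activated arrays, against 10.48 and 10.14 on the naive control arrays, so it lay slightly lower with CD40 (-0.29, interval between -0.93 and 0.36). The intervals of both genes stop short of a doubling. The LMP1 change was 1.01 for Slc3a2 (interval between 0.57 and 1.45) and 1.11 for Slc1a5 (interval between 0.47 and 1.75). The difference between the responses, given below, did not pass for Slc3a2 or for this Slc1a5 probe set (adjusted p = 0.0941 and 0.0663 in limma). Slc38a1 (0.30), Slc38a2 (0.24) and Slc7a11 (-0.15) had adjusted p between 0.262 and 0.854 in limma.

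Naive control arrays also carried more signal of other cell types. The mean level of 7 measured T cell markers was 5.73 to 6.08 on the CD40-activated arrays, against 8.43 to 8.68 on the naive control arrays, and 7 of 7 were lower with CD40. The 5 NK cell markers averaged 4.23 to 4.31 on the CD40-activated arrays, against 6.03 to 6.67 on the naive control arrays. The 3 measured erythroid and platelet markers averaged 4.55 to 4.57 on the CD40-activated arrays, against 6.84 to 7.87 on the naive control arrays. On YFP control arrays T cell markers averaged 5.56 to 6.01, also below the naive arrays. Their part in the transporter results was not tested, and fewer cells of a type and less RNA per cell cannot be told apart in such bulk samples. B cell markers averaged 10.72 to 10.86 on the CD40-activated arrays, against 10.84 to 10.88 on the naive control arrays.

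The controls also differ from each other, by culture, recombinase, sort, strain and sex. Of the 8 genes 1 rose and 0 fell, against 10.9% of all genes higher and 7.59% lower. That gene was Slc38a2, with 10.90 and 10.94 on the YFP control arrays, against 10.26 and 10.30 on the naive control arrays (change 0.64 ± 0.15; adjusted p = 0.0182 in limma). The groups did not overlap for Slc3a2 and Slc38a1, which did not pass, nor for Slc38a2. Its change did not pass without naive control 1 (adjusted p = 0.0559 in limma).

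For Slc7a1 and Slc1a4 the controls lay close together, with differences of -0.10 (interval between -0.58 and 0.39) and 0.11 (interval between -0.29 and 0.51). Slc7a5 differed by 0.33 (interval between -0.48 and 1.13), and without naive control 1 this was 1.03 and passed (adjusted p = 0.0175 in limma). The probe sets of Slc1a5 were uneven here: the brighter one was at -0.54 without passing, and the dimmer one, with 6.53 and 6.35 on the YFP control arrays against 8.07 and 7.79 on the naive control arrays, fell by 1.49 (adjusted p = 0.000497 over 22225 probe sets in limma). Without YFP control 1 the brighter Slc1a5 probe set (-1.04), Slc7a11 (1.79) and Slc38a1 (-0.60) also passed, with adjusted p between 0.00115 and 0.0263 in limma.

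LMP1 cells were then compared with CD40-activated cells, the direct comparison of the stimulated states. Of the 8 genes 4 were higher in LMP1 cells and 0 lower, against 9.66% of all genes higher and 5.17% lower. Slc1a4 was higher by 2.00 ± 0.18 (adjusted p = 0.000102 in limma) and Slc7a5 by 1.61 ± 0.36 (adjusted p = 0.0144). Slc3a2 was higher by 1.36 ± 0.20 (adjusted p = 0.00136) and Slc7a1 by 1.13 ± 0.22 (adjusted p = 0.0067). For these 4 genes each LMP1 array lay above each CD40-activated array. That was also so for Slc7a11, Slc38a2 and the brighter probe set of Slc1a5, which did not pass, so it does not set the 4 genes apart. With any 1 of these 4 arrays left out, Slc7a5 (adjusted p between 0.0764 and 0.125 in limma) and Slc7a1 (between 0.0546 and 0.0658) did not pass, and Slc1a4 and Slc3a2 did.

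Slc1a5 was higher by 0.86 without passing (adjusted p = 0.0789 in limma), and its dimmer probe set differed by 0.04, so the probe sets gave different sizes in this comparison. Slc38a2 was higher by 0.47 (adjusted p = 0.0726), Slc7a11 by 0.50 (adjusted p = 0.557) and Slc38a1 was at -0.08 (adjusted p = 0.849). B cell markers were lower in LMP1 than in CD40-activated cells for 5 of 7 (median -0.80), and dendritic cell markers higher for 2 and lower for 1 of 5, and their part was not tested. Slc38a1 was the one member whose LMP1 mean, 10.57 ± 0.08 (SD, n = 2), was not above its CD40-activated mean, 10.65 ± 0.01 (SD, n = 2). The interval of that difference ran between -0.45 and 0.29.

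The difference between the responses, each taken against its own control, was tested as an interaction. It shares all 8 arrays with the comparisons above and is no separate evidence for them. YFP control cells were cultured for 2 days and naive control cells were not, so only the CD40 response includes culture. That part cannot be told apart from the antibody. Of the 8 genes 2 had a larger response to LMP1 and 0 a smaller one, against 4.20% of all genes higher and 4.12% lower. Slc1a4 rose by 1.89 ± 0.25 more with LMP1 than with CD40 (adjusted p = 0.00184 in limma) and Slc7a1 by 1.22 ± 0.31 more (adjusted p = 0.0386). The Slc1a4 difference passed with each array left out in turn, and that of Slc7a1 did not pass without either LMP1 array, either CD40-activated array, YFP control 2 or naive control 1 (adjusted p between 0.0766 and 0.156).

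Slc1a5, Slc7a5 and Slc3a2 had positive differences that did not pass. Slc1a5 was at 1.39 (adjusted p = 0.0663 in limma), and its dimmer probe set at 1.53 passed (adjusted p = 0.00467), as did the brighter one without YFP control 1 (1.90, adjusted p = 0.00224). Without YFP control 2 the brighter one was at 0.89 (adjusted p = 0.0606 in limma). Slc7a5 was at 1.29 (interval between 0.14 and 2.43; adjusted p = 0.171), and without naive control 2, its low array, it was at 1.99 and passed (adjusted p = 0.00505). Without naive control 1 the Slc7a5 difference was 0.58 (adjusted p = 0.248 in limma). Slc3a2 was at 0.86 (adjusted p = 0.0941). Slc38a1 (0.38), Slc38a2 (-0.17) and Slc7a11 (-0.44) had intervals that included 0. Markers differed here too, with T cell markers higher for 6 of 7 (median 2.69), NK cell markers for 3 of 5, dendritic cell markers for 3 of 5 and erythroid and platelet markers for 2 of 3. B cell markers were lower for 4 of 7 and monocyte markers for 2 of 6, and the part of all these in the result was not tested.

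**Figure D2:**
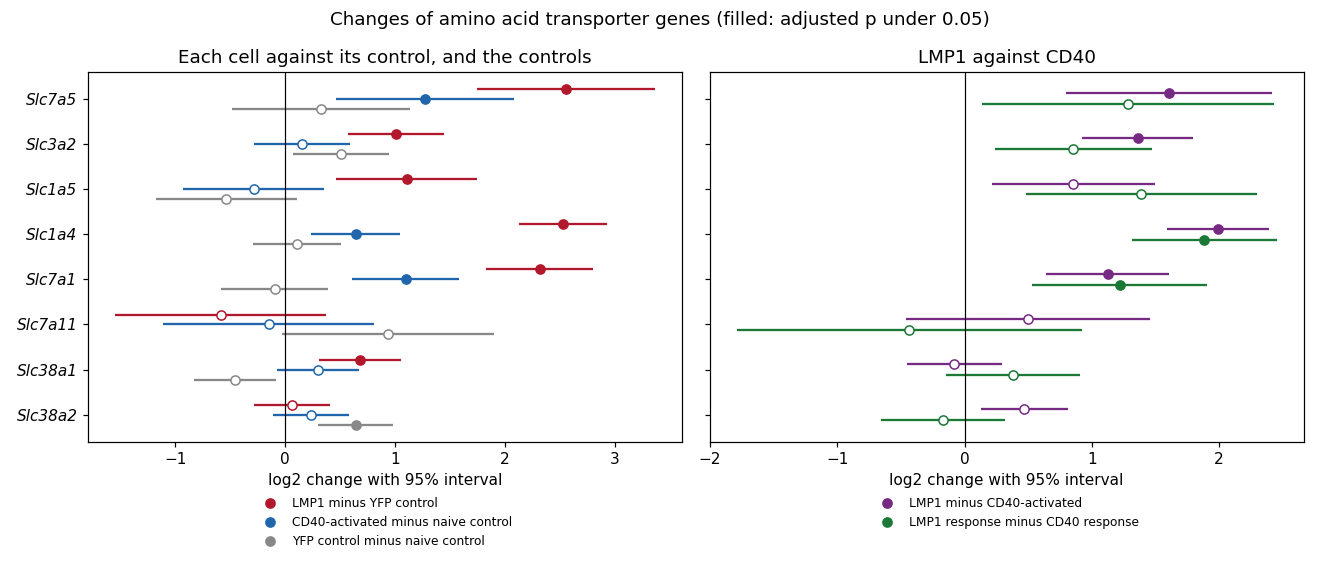
Log2 change of each transporter gene (points) with its 95% interval (lines) in 5 comparisons, with filled points at an adjusted p under 0.05 and open points otherwise; the left panel has each stimulated cell against its control and YFP control against naive control, and the right panel has LMP1 minus CD40-activated and the difference between the responses. Slc7a5, Slc1a4 and Slc7a1 stand beyond 2 log2 units with LMP1 and at 1.27, 0.64 and 1.10 with CD40, and Slc7a11 has the widest intervals.

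The order of the groups differed between members. LMP1 was highest for Slc7a5, Slc3a2, Slc1a4, Slc7a1 and the brighter probe set of Slc1a5, and CD40-activated cells came next for Slc7a5, Slc1a4 and Slc7a1, with YFP control and naive control behind and not apart by the test. For Slc3a2 the order below LMP1 was YFP control, CD40-activated and naive control, at means of 9.93, 9.58 and 9.42, and the CD40-activated and naive arrays overlapped. For the brighter Slc1a5 probe set naive control cells came second at 10.31 ± 0.24 (SD, n = 2). For its dimmer probe set naive control cells came first, at 7.93 ± 0.20 (SD, n = 2), against 7.70 ± 0.09 (SD, n = 2) in LMP1 cells. Slc38a2 had the F1 cells above the B6/J cells, with 10.99 in LMP1 cells, 10.92 in YFP control cells, 10.52 in CD40-activated cells and 10.28 in naive control cells. For Slc38a1 CD40-activated cells came first at 10.65, then LMP1 at 10.57, naive control at 10.35 and YFP control at 9.89. Its rise with LMP1 was thus taken against the lowest group.

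Across the 8 arrays, which form 4 levels of 2 arrays, the profiles of Slc7a5, Slc1a4 and Slc7a1 ran together with Pearson r between 0.949 and 0.968. Slc3a2 followed them less closely (0.84 with Slc7a5, 0.777 with Slc7a1), and Slc7a11 had r of -0.05 with Slc7a5 and -0.72 with Slc38a1. Among 4809 genes with an SD of at least 0.5, those most like Slc7a5 were Kif18a, Cd44 and Rpusd4 (r between 0.988 and 0.992). Those most like Slc7a1 were Nob1, Mtbp and Spc25 (r between 0.994 and 0.997), and those most like Slc1a4 were F9, Xpo4 and Mir1983 (r between 0.993 and 0.996). These values describe likeness over arrays of 4 groups that also differ in strain, sex and array set, and carry no test.

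Of 35 other plasma membrane transporters measured, 3 rose and 1 fell in LMP1 cells against YFP control cells, against 14.9% higher and 8.31% lower of all genes. Their median was -0.08, the same as that of all genes. Slc7a3 (CAT3), a further carrier of arginine and lysine, had 7.28 and 7.00 on the LMP1 arrays, against 4.20 and 4.55 on the YFP control arrays (change 2.77 ± 0.20; adjusted p = 2.23e-05 in limma). It had 4.06 and 3.84 on the CD40-activated arrays, against 3.72 and 4.02 on the naive control arrays (0.08), and the LMP1 response was larger by 2.69 (adjusted p = 0.000567 in limma). Both LMP1 arrays thus stood above the other 6 for Slc7a3, as they did for its relative Slc7a1.

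Slc7a6 (y+LAT2), a partner of Slc3a2 that exchanges arginine for neutral amino acids, rose in both comparisons, by 1.39 with LMP1 and 0.84 with CD40, and was higher by 0.76 in YFP control than in naive control cells (adjusted p = 0.0155 in limma). The taurine carrier Slc6a6 rose by 0.93 with LMP1. Slc43a2 (LAT4), which lets large neutral amino acids through without exchange, fell in both, by 1.03 with LMP1 and 0.87 with CD40. With CD40 1 of 35 rose and 4 fell, at a median of -0.19, against 11.0% higher and 6.65% lower of all genes. Among those 4, Slc43a1 (LAT3) had 6.46 and 6.34 on the CD40-activated arrays, against 9.41 and 8.06 on the naive control arrays. Slc16a10 (TAT1), a carrier of aromatic amino acids, had 6.28 and 6.42 on the CD40-activated arrays, against 8.52 and 6.91 on the naive control arrays. Both were lower on YFP control than on naive control arrays as well, with changes of -2.91 and -1.99. That is the direction of the T cell, NK cell and erythroid markers given above, whose part was not tested.

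**Figure D3:**
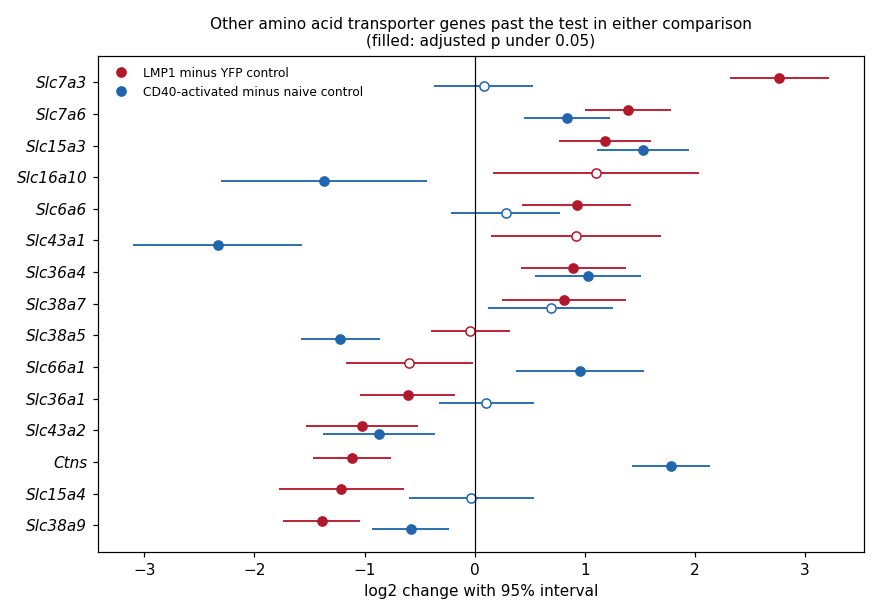
Log2 change with its 95% interval for the 15 other transporter genes that passed the test in at least 1 of the comparisons LMP1 minus YFP control and CD40-activated minus naive control, with filled points at an adjusted p under 0.05. Slc7a3 stands at 2.77 with LMP1 and 0.08 with CD40, and Ctns stands at -1.12 with LMP1 and 1.78 with CD40.

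Of 13 measured transporters of lysosomes and other inner membranes, 3 rose and 4 fell with LMP1 (14.9% higher and 8.31% lower of all genes). With CD40 4 rose and 1 fell (11.0% higher and 6.65% lower of all genes). The lysosomal arginine sensor Slc38a9 fell by 1.39 with LMP1 and by 0.58 with CD40, and Slc15a4, a lysosomal carrier of histidine and peptides, fell by 1.21 with LMP1 and was at -0.03 with CD40. Slc15a3 rose in both, by 1.18 and 1.53, and Slc36a4 by 0.90 and 1.03. Ctns (cystinosin), which releases cystine from lysosomes, had 7.32 and 7.13 on the LMP1 arrays, against 8.35 and 8.33 on the YFP control arrays. It had 8.81 and 8.83 on the CD40-activated arrays, against 7.03 and 7.05 on the naive control arrays. Ctns was also higher by 1.30 on YFP control than on naive control arrays (adjusted p = 0.000642 in limma). Its responses ran in opposite directions and differed by -2.90 ± 0.22 (adjusted p = 0.000109 in limma), and Slc66a1, which releases arginine and lysine from lysosomes, differed by -1.55 (adjusted p = 0.0301).

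Of 16 measured enzymes that use glutamine or glutamate, 10 rose and 0 fell with LMP1 (median 0.90), and 8 rose and 0 fell with CD40 (median 0.60). Of all genes, 14.9% were higher and 8.31% lower with LMP1, and 11.0% higher and 6.65% lower with CD40. The remaining 6 with LMP1 and 8 with CD40 did not pass. With LMP1 the largest changes were those of Ppat (2.37) and Cad (2.34), which use glutamine for purine and pyrimidine synthesis, and the smallest were those of Gss (0.74), of glutathione synthesis, and the aminotransferase Got1 (0.80). With CD40 the aminotransferase Got2 (1.77) and the proline synthesis enzyme Aldh18a1 (1.38) came first, and Gfpt1 (0.65) and Gmps (1.06) last. Got2 had 11.16 and 10.38 on the YFP control arrays, against 9.37 and 9.45 on the naive control arrays. It was thus higher on the cultured controls too, while for Aldh18a1 these arrays overlapped (7.44 and 6.70, against 6.97 and 6.86). The part of culture was not tested. Of the 16, 3 had a larger response to LMP1 and 0 a smaller one, against 4.20% of all genes higher and 4.12% lower. The 3 were Gfpt1 (1.33), Gpt2 (1.25) and Ctps (1.11).

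The list of regulators and targets of the amino acid response held 18 genes, of which 10 rose and 2 fell with LMP1 (median 0.83), and 2 rose and 3 fell with CD40 (median -0.08). Of all genes 14.9% were higher and 8.31% lower with LMP1, and 11.0% higher and 6.65% lower with CD40, so the 2 that rose with CD40 lie at that share. Asparagine synthetase (Asns, 3.38) and the serine synthesis enzyme Psat1 (2.86) led with LMP1, while Nfe2l2, the factor NRF2 that acts on antioxidant genes, fell by 1.44 and Mlxip by 1.17. With CD40 Psat1 rose by 2.51, and Nfe2l2 rose by 0.72. Psat1 had 6.51 and 6.71 on the YFP control arrays, against 4.98 and 5.27 on the naive control arrays. Cebpb lay lower with CD40, at 5.15 and 5.26, against 6.20 and 6.04 on the naive control arrays. Atf3 did so too, at 6.53 and 6.29, against 7.34 and 7.11. Both were also lower on the YFP control arrays, at 5.26 and 4.52 for Cebpb and 5.82 and 6.20 for Atf3. Nfe2l2 was also higher by 1.29 on YFP control than on naive control arrays (adjusted p = 0.0016 in limma). Each taken against its own control, the Nfe2l2 responses ran in opposite directions and differed by -2.16 ± 0.26 (adjusted p = 0.0011 in limma). Both the CD40-activated arrays (9.59 and 9.56) and the LMP1 arrays (8.84 and 8.57) lay below the cultured YFP control arrays (9.95 and 10.34). Atf4, chosen here after its values were seen, rose by 1.26 ± 0.22 with LMP1 (adjusted p = 0.00208 in limma). It was lower on YFP control than on naive control arrays (change -1.20). Its response was larger by 1.39 with LMP1 than with CD40 (adjusted p = 0.0223 in limma). Between LMP1 and CD40-activated cells Atf4 differed by 0.19, with an interval between -0.30 and 0.67.

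Of 30 measured genes of amino acid sensing and mTORC1, 4 rose and 2 fell with LMP1 (median 0.20), and 7 rose and 2 fell with CD40 (median 0.22). With LMP1 these counts lie near or below the 14.9% higher and 8.31% lower of all genes, and with CD40 11.0% and 6.65% of all genes were called. Sesn2, a leucine sensor that restrains mTORC1, rose by 2.89 with LMP1 and by 1.51 with CD40, and its relative Sesn1 fell by 1.28 with LMP1 and by 1.29 with CD40. The subunit Rragd of the Rag GTPases, which bring mTORC1 to lysosomes, fell by 1.13 with LMP1. With CD40 Fnip1 (1.55) and Rragc (1.54) rose most and Fnip2 (-1.49) fell most. Fnip1 had 8.43 and 8.72 on the CD40-activated arrays, 8.36 and 8.76 on the YFP control arrays and 7.08 and 6.98 on the naive arrays. In the same order Fnip2 had 4.25 and 4.26, 4.80 and 4.76, and 6.24 and 5.24. Rragc had 9.48 and 9.44, 8.55 and 8.20, and 8.08 and 7.76. YFP control thus differed from naive control in the CD40 direction for each of these genes, and the part of culture was not tested. The responses differed most for Rragd (-2.28) and Fnip1 (-2.13) on the lower side and for Fnip2 (1.61) and Sesn2 (1.38) on the upper side.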

How the data were processed

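Log2 values per probe set were used as deposited by the authors, and per the submitters' processing notes their tools were RMA and oligo (versions and genome build not given in the sources used here). Whether all 8 arrays were normalized together is not given either, which bears on each value that sets F1 cells against B6/J cells. Total RNA was labelled with the WT PLUS kit, per the labels' protocols. Of 25349 probe sets 22225 had 1 symbol in the platform's table, 616 several and 2508 none; the last 2 kinds were left out. The brightest probe set stood for each of the 640 genes with several.

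All 8 arrays entered 1 model of 4 group means in limma 3.58.1 (R 4.3.3; lmFit and eBayes, 4 residual and 5.75 prior degrees of freedom), with two-sided p-values adjusted by Benjamini-Hochberg over 21515 genes and a threshold of 0.05. Errors beside changes are standard errors and those beside levels SD. The procedure was tested on simulated data. The number of arrays limits the precision, and no detection calls were used.

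The members, comparisons and gene lists were chosen with earlier results of these data known. All 8 members are named. Of each list at most 4 genes per comparison are named, those with the 2 highest and 2 lowest changes among genes past the test, with their values in the other comparisons, and for some members the 3 genes with the highest Pearson r. Some listed genes were not analysed here. Alternatives were trend and robust moderation, fits of only the groups compared, dim genes left out (below the 25th percentile), array medians subtracted, quantile normalization within each array set, the mean of probe sets, array weights, a replicate block and each array left out. The dimmer probe sets of Slc1a5 and Slc7a11 were tested by themselves after the data were seen.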

Additional observations from a re-analysis of the deposited data

Results flagged for a closer look

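The response to LMP1 was larger than the response to CD40 by the test of the difference itself for 2 of the 8 transporters. For Slc1a4 the difference was 1.89 ± 0.25 on the log2 scale (adjusted p = 0.00184 in limma; over 15 alternative settings the adjusted p lay between 0.00103 and 0.0176). For Slc7a1 it was 1.22 ± 0.31 (adjusted p = 0.0386 in limma; over 15 alternative settings between 0.0114 and 0.156, with 8 past the threshold). The responses come from cells of different strain, sex and array set, and only the CD40 response includes 2 days of culture. An effect of these on the size of a response cannot be told apart from the stimulus.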

How the results depend on the processing

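Over all alternatives, 440 of 514 values for single transporters kept their direction and their side of the threshold. That count includes values that passed neither in the main fit nor in the alternative, so it is no measure of how stable the passing results were. Of the rest, 36 lost their pass, 25 gained one and 13 turned sign. Against YFP control, Slc7a5, Slc3a2, Slc1a4 and Slc7a1 passed under 12 of 12 settings, and Slc1a4 did so in the direct comparison and in the difference of responses too.

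With only the groups compared, 4 transporters passed with LMP1 against YFP control (3664 genes in all), and Slc1a5 (adjusted p = 0.08) and Slc38a1 (adjusted p = 0.0504 in limma) did not. Under that setting 1 transporter passed with CD40 (4108 genes in all), 7 between LMP1 and CD40-activated cells (6360 genes) and 0 between the controls (1537 genes). Array weights gave 6751 genes between LMP1 and CD40-activated cells and 2020 genes and 0 transporters between the controls. For the difference of responses 1 transporter passed with array medians subtracted (1557 genes in all) and 4 with quantile normalization within each set (1942 genes). With the mean of probe sets 2 passed between the controls (3977 genes in all). Quantile normalization within sets turned Slc38a2 with LMP1 to -0.11 and Slc3a2 with CD40 to -0.089, neither past the test. The dimmer Slc7a11 probe set gave -0.01 between LMP1 and CD40-activated cells, 0.065 for the difference of responses and -0.075 between the controls. The causes were not tested. The share of called genes that were higher was 64.2% with LMP1, and 52.0% under quantile normalization within sets; with CD40 it was 62.4%, against 52.6% under that setting and 73.7% with array medians subtracted.

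With each array left out in turn, the genes called ranged from 2647 to 7090 with LMP1, from 1576 to 2937 with CD40, from 1275 to 1469 between LMP1 and CD40-activated cells, and from 707 to 4199 for the difference of responses. The transporters called ranged from 0 to 3 with CD40, were 2 in each case between LMP1 and CD40-activated cells, and ranged from 1 to 5 for the difference and from 1 to 4 between the controls; the highest values of the last 2 came without YFP control 1. Changes that turned sign were those of Slc7a11 (-1.44 to 0.27 with LMP1, -0.31 to 0.005 with CD40, -1.29 to 0.42 for the difference), Slc3a2 with CD40 (-0.01 to 0.32) and, between the controls, Slc7a5 (-0.38 to 1.03), Slc1a4 (-0.09 to 0.31) and Slc7a1 (-0.41 to 0.22). A lone array in a group was assumed to vary like the other groups.

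What arrays with the same replicate number share beyond that number is not stated. Correlations of their deviations over all genes lay between -0.102 and 0.074, which cannot exclude a pairing that affects some genes. With replicate number as a block, 6 transporters passed with LMP1, 3 with CD40, 5 between LMP1 and CD40-activated cells, 3 for the difference and 1 between the controls. In the same order, 4923, 3659, 3036, 1672 and 3807 of the 21515 genes passed. Slc1a5 was the addition between LMP1 and CD40-activated cells and for the difference (adjusted p = 0.0479 and 0.0417 in limma). The fit of only the groups compared has no value for the difference of responses, which uses all 4 groups.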
